A study of Mus musculus with 2 samples.

Results

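The cells described here are the tumour cells with the highest expression of 4 genes of the oxygen response in subcutaneous mouse tumours of the colon carcinoma line MC38. Droplet-based sequencing of the 3' ends of transcripts in single cells gave 2 libraries, 1 from tumours of the control group and 1 from tumours of the UBD overexpression group. UBD (FAT10) resembles ubiquitin and marks proteins for the proteasome. All tumours in both groups came from MC38 cells. The number, strain, sex and age of the mice, how many tumours entered each library, and the construct or clone that carries UBD are not stated in the labels. A barcode was taken as a tumour cell with at least 5000 UMIs (unique molecular identifiers, each standing for 1 captured transcript), at most 20% mitochondrial UMIs, at least 5 Cdkn2a UMIs per 10000 and 0 UMIs of Ptprc, the pan-leukocyte gene. Each tumour cell was scored by its summed Ndrg1, Ero1l, Adm and Slc2a1 UMIs per 10000, and the hypoxic cells are the top 10% of the scores pooled over both libraries. They numbered 1128 of 11283 tumour cells and of 29048 barcodes in all, with 539 among the 3790 control tumour cells and 589 among the 7493 UBD tumour cells. The remaining 3251 control and 6904 UBD tumour cells are called the other tumour cells.

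Cells short of oxygen stop hydroxylating the alpha subunits of the hypoxia-inducible factors (HIFs), which then escape degradation through VHL, pair with ARNT and bind a short core motif near their target genes. The targets shift glucose use from respiration to glycolysis and lactate export, recruit vessels, buffer acid and remove mitochondria. In solid tumours the response marks cells far from perfused vessels, where low oxygen usually comes with low glucose and acid.

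With 1 library per group there is no replicate. No test was run, the library and the treatment cannot be told apart, and each value describes these 2 libraries. The 95% intervals cover only the error of counting. Because the cells were chosen by their own measured values, hypoxic against other cells within a library is a description, and genes are called higher or lower where their ratio is at least 1.5-fold. Levels are CPM, counts per 1000000, with UMIs summed over a set of cells. Hypoxic cells had a median of 31371 UMIs and 4869 genes in the control library and 18313 UMIs and 3698 genes in the UBD library, against 23613 and 17468 UMIs in the other tumour cells. Their median mitochondrial share was 2.19% and 3.1%, against 3.86% and 3.31%. The 2 libraries shared 71 barcode sequences, of which 10 were tumour cells in both libraries and 0 were hypoxic in both. Predicted doublets made up 0.928% and 0.849% of hypoxic cells.

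Epithelial markers were uneven between the libraries. Epcam was at 0 UMIs in the hypoxic cells of both libraries and in the other control tumour cells. In the other UBD tumour cells it was at 0.0719 CPM. Krt18 and Krt8 stood at 4.52 and 6.78 CPM among control and 49.2 and 38.1 CPM among UBD hypoxic cells. Markers of fibroblasts (5 genes, none at 0) summed to 1487 and 1034 CPM in hypoxic cells and to 1574 and 1511 CPM in the other tumour cells. The 4 Y-linked genes, read as a marker of male host cells, summed to 1.1 and 0.794 CPM in hypoxic cells, 1.19 and 0.863 CPM in the other tumour cells, and 44.5 and 56.7 CPM in Ptprc-positive barcodes under the same depth limits. The 11 macrophage markers, none at 0, summed to 208 and 394 CPM in hypoxic cells, 280 and 651 CPM in the other tumour cells and 8189 and 12104 CPM in Ptprc-positive barcodes. In the UBD library the highest single macrophage marker stood at 241 CPM in hypoxic and 410 CPM in other tumour cells. Summed levels in hypoxic cells were between 0.159 and 5.51 CPM for neutrophil, T and NK, dendritic, B and plasma, endothelial and erythroid markers. Pericyte and smooth muscle markers summed to 79.8 and 65.7 CPM in hypoxic cells and to 109 and 105 CPM in the other tumour cells. Ptprc-positive barcodes reached the score of the hypoxic cells in 8.73% of control and 4.41% of UBD barcodes. They are a mixed reference. Cdkn2a, Krt8, Krt18 and Epcam summed to 1128 and 757 CPM in them, against 1827 and 1610 CPM in hypoxic cells. Predicted doublets made up 13.5% and 16.2% of them.

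Hypoxic cells made up 14.2% (13.1 to 15.4) of control tumour cells and 7.86% (7.26 to 8.49) of UBD tumour cells. The share was thus 1.81-fold (1.61 to 2.04) higher in the control library, a difference of -6.36 percentage points in the UBD library (-7.65 to -5.11). Among the highest scores the gap was wider. The top 1% of all tumour cells held 89 control and 24 UBD cells, and with the top 5% taken in place of the top 10% the log2 ratio of the shares, UBD over control, was -1.47 in place of -0.86. With the top 20% it was -0.41. The highest score was 147 UMIs per 10000 among control and 91.1 among UBD cells, and the median hypoxic cell scored 21.0 and 15. The score had no break at the limit: the cells nearest to it scored 9.54 and 9.55 inside, and 9.54 and 9.53 outside. The gap in the share was not the same in all clusters of tumour cells, which are described below. In cluster 0 the share was 21.0% of control and 29.2% of UBD cells. In clusters 4, 5 and 6 it was lower in the UBD library, with overlapping intervals. Clusters 1 and 3 held 42.9% and 45.8% of UBD but 0.554% and 1.16% of control tumour cells. The total shares thus compare different mixes of clusters.

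**Figure D1:**
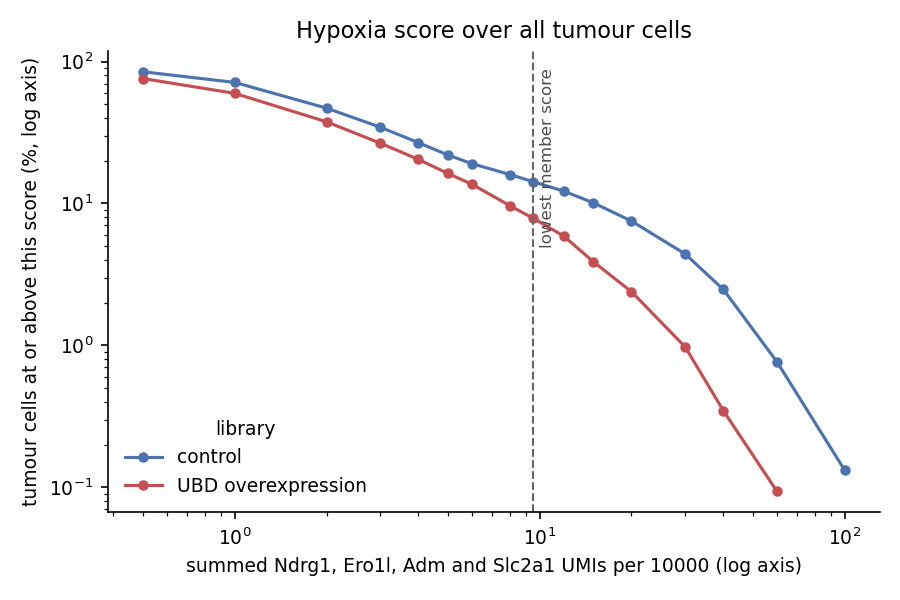
Share of tumour cells (vertical axis, percent, log scale) at or above each value of the summed score of Ndrg1, Ero1l, Adm and Slc2a1 (horizontal axis, UMIs per 10000, log scale) in the control and UBD overexpression libraries. The control curve lies above the UBD curve throughout and crosses the lowest score of a hypoxic cell (dashed line) at 14.2%, against 7.86%.

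The 4 genes of the score cover different arms of the response. Ndrg1 (ENSMUSG00000005125, GRCm38 chr15:66929318-66969640) encodes a stress-responsive cytoplasmic protein, Ero1l (ENSMUSG00000021831, chr14:45283087-45318771) the oxidase that renews disulfide bond formation in the endoplasmic reticulum, Adm (ENSMUSG00000030790, chr7:110627661-110629820) the vasodilator peptide adrenomedullin, and Slc2a1 (ENSMUSG00000028645, chr4:119108711-119137983) the glucose transporter GLUT1. As these genes chose the cells, their levels are given with no reading. Ndrg1 was 506 CPM in hypoxic and 60.8 CPM in other control cells, and 412 and 45.6 CPM in those of the UBD library. Ero1l was 1533 against 87.2 CPM among control cells and 1081 against 97.4 CPM among UBD cells. Adm was 208 CPM in hypoxic and 6.94 CPM in other control cells, and 118 and 6.33 CPM in those of the UBD library. Slc2a1 was 364 against 63.9 CPM among control cells and 276 against 46.2 CPM among UBD cells. Ero1l gave 58.7% of the score's UMIs in control and 57.3% in UBD hypoxic cells and was the leading gene in 83.9% and 76.1% of them. Adm gave 7.96% and 6.24%. All 4 genes were detected in 72.5% of control and 49.6% of UBD hypoxic cells, whose median depths were 31371 and 18313 UMIs.

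Each gene was then read in cells that the other 3 had chosen. When each gene was left out and the top 10% ranked by the other 3, Ndrg1 was 7.34-fold and 7.05-fold higher in the cells so chosen, in the control and UBD libraries. The same ratios were 10.9 and 7.0 for Ero1l, 24.8 and 15.1 for Adm, and 5.39 and 5.33 for Slc2a1. Without Ero1l, 854 of the 1128 cells (75.7%) stayed among those chosen, the smallest overlap, and without Adm 1087 did (96.4%). The next values still use the gene's own UMIs in the choice of cells and are a description. Splitting each cell's UMIs at random into 2 equal shares, ranking on one and reading the other, gave ratios of 8.06 and 8.35 for Ndrg1, 16.5 and 10.1 for Ero1l, 28.4 and 18 for Adm and 5.65 and 5.41 for Slc2a1. With each cell thinned to 5000 UMIs, Adm was seen in 46.4% of control and 31.7% of UBD hypoxic cells, against 2.52% and 2.51% of the other tumour cells (73.8%, 53.7%, 9.41% and 7.16% unthinned). Over single cells, which share a library and its depth, Pearson correlations between pairs of the 4 genes ranged from 0.371 to 0.554 among 3790 control and from 0.258 to 0.416 among 7493 UBD tumour cells.

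The promoters of 3 score genes and of 3 targets outside the score are shown because their transcripts were high in the same cells in both libraries and HIF is known to bind the letters ACGTG or GCGTG. Sequences are the RefSeq windows on GRCm38.p6, from 250 bases before to 50 bases after the gene start, written 5′ to 3′ on the gene's strand. Capitals mark each ACGTG or GCGTG on either strand, so that CACGT and CACGC in capitals are matches on the opposite strand. RefSeq lists Ero1l as Ero1a.
Ero1l, chr14:45318523-45318822, minus strand: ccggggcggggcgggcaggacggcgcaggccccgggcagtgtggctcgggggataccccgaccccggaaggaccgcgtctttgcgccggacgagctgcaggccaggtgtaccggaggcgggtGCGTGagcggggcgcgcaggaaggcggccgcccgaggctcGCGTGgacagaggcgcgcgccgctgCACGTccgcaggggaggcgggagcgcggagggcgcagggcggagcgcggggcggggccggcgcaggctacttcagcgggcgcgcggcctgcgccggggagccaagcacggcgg
Adm, chr7:110627407-110627706, plus strand: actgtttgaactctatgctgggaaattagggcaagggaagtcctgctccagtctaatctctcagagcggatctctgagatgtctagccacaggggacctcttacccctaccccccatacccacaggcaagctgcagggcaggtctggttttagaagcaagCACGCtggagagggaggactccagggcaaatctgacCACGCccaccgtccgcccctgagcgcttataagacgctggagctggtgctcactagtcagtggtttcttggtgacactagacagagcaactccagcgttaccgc
Slc2a1, chr4:119108495-119108794, plus strand: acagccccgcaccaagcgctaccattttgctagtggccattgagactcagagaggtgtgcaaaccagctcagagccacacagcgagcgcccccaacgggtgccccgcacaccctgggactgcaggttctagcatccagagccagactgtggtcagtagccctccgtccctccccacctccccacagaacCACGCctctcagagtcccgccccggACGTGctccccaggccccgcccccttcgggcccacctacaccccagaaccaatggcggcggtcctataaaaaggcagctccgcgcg
Car9, chr4:43506776-43507075, plus strand: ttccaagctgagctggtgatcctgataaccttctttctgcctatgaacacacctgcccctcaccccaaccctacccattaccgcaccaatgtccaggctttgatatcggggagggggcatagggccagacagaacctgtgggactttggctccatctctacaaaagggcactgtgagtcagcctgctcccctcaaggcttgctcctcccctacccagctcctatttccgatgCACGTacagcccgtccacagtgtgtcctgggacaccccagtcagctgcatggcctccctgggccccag
Bnip3, chr7:138909457-138909756, minus strand: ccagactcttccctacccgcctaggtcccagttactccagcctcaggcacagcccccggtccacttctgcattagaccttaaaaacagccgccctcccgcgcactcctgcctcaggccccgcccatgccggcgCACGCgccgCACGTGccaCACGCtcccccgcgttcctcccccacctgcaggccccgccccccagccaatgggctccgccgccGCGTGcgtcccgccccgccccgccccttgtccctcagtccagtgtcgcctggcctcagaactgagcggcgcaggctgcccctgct
Ankrd37, chr8:45999801-46000100, minus strand: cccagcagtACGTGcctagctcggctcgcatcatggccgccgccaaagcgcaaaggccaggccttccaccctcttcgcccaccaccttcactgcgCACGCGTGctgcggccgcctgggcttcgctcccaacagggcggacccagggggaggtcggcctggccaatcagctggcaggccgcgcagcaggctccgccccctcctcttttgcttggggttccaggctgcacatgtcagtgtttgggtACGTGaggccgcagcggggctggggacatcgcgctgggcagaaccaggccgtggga
The Ero1l window held 3 matches, Adm and Slc2a1 2 each, Car9 1, Ankrd37 4 and Bnip3 5, of which 2 overlap as the 2 strands of 1 palindrome. In Car9 the match lies 18 bases before the start. Mxi1, a further target drawn by the same choice, has 3 windows with 0, 1 and 1 matches. Of all 32851 promoter windows of this length, 14380 (43.8%) held at least 1 match, so a match is common and is a description of letters only.

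Outside the score, known HIF targets were higher in the hypoxic cells of both libraries. Of 29 measured target genes 25 were at least 1.5-fold higher in the control library and 1 lower, with a median log2 ratio of 1.61. In the UBD library 26 of 30 were higher and 0 lower, with a median of 1.2. Over all genes measured the same limits were passed upward by 7.86% of 13911 genes among control and 7.84% of 13958 among UBD cells, downward by 20.1% and 17.2%, and the median log2 ratio was -0.17 and -0.13. In both libraries together 505 of 13410 genes (3.77%) were higher and 1194 (8.9%) lower, and with ratios centred on the median gene 789 were higher and 760 lower. Set against other tumour cells matched for UMI count, the target medians were 1.56 and 1.2. The label of hypoxic cells was checked on these targets, and the list and the score are known parts of 1 response, so the targets are not independent of the score.

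Bnip3, Ankrd37 and Ndufa4l2 had large ratios in both libraries. Bnip3, which tags mitochondria for autophagy, was 368 CPM in hypoxic and 56.9 CPM in other control cells, and 336 and 69 CPM in those of the UBD library, ratios of 6.46-fold (6.23 to 6.7) and 4.88-fold (4.7 to 5.06). Its relative Bnip3l was 388 against 106 CPM among control cells and 228 against 102 CPM among UBD cells. Thinned to 5000 UMIs, Bnip3 was seen in 77.4% and 75.7% of hypoxic cells and in 18.3% and 25.2% of the other tumour cells (95.7%, 95.4%, 44.6% and 51.3% unthinned). Ankrd37, an ankyrin repeat protein known as a HIF target, was 144 CPM in hypoxic and 18 CPM in other control cells, and 126 and 26.6 CPM in those of the UBD library, 7.97-fold (7.49 to 8.49) and 4.73-fold (4.45 to 5.02). Higd1a, a mitochondrial protein that supports survival at low oxygen, had ratios of 3.57 and 2.8. Ndufa4l2, which stands in for a respiratory chain subunit in hypoxia, was 137 against 20.6 CPM among control cells and 59.5 against 11.1 CPM among UBD cells, with ratios of 6.63-fold (6.25 to 7.05) and 5.34-fold (4.89 to 5.83), the largest smaller ratio among genes at 50 CPM or more in both libraries. The hypoxic cells were high in each library for all of these genes, and the control and UBD ratios of Ankrd37 differed most.

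Secreted and acid-handling targets followed. Vegfa, the main vessel growth factor, was 358 CPM in hypoxic and 92.9 CPM in other control cells, and 324 and 91.7 CPM in those of the UBD library, ratios of 3.85-fold (3.73 to 3.98) and 3.54-fold (3.41 to 3.67). Car9, the membrane carbonic anhydrase that exports acid, was 82.5 against 8.04 CPM among control cells and 20.2 against 1.92 CPM among UBD cells. Its ratios, 10.3-fold (9.39 to 11.2) and 10.5-fold (8.85 to 12.6), had overlapping intervals, while its level in hypoxic cells was 4.08-fold (3.57 to 4.67) higher in the control library. Apln, a vascular peptide, had ratios of 7.62 and 8.94 at 49.5 and 29.4 CPM in hypoxic cells. Among angiogenic and vascular ligands as a whole 4 of 15 were higher and 3 lower in the control library, and 5 of 14 higher and 3 lower in the UBD library. Over all genes 7.86% and 7.84% were higher and 20.1% and 17.2% lower, so the lower counts were near the share of all genes. Placental growth factor, Pgf, is described with the genes that differed between the libraries. Angpt2, a vessel-destabilising ligand, had ratios of 0.736 and 0.824.

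Among the genes of oxygen sensing, 2 hydroxylases were high and Hif1a and Arnt were within 1.5-fold. The prolyl hydroxylases Egln3 and Egln1, which mark HIF alpha for degradation and are themselves HIF targets, were both higher. Egln3 was 207 CPM in hypoxic and 43.7 CPM in other control cells, and 246 and 63.7 CPM in those of the UBD library, ratios of 4.74-fold (4.53 to 4.96) and 3.85-fold (3.7 to 4.01). Egln1 was 437 against 93.5 CPM among control cells and 350.3 against 95.4 CPM among UBD cells, ratios of 4.68-fold (4.53 to 4.82) and 3.67-fold (3.55 to 3.8). Egln2, the third enzyme of the family, had ratios of 0.759 and 0.892. Hif1a was 118 CPM in hypoxic and 112 CPM in other control cells, and 176 and 145 CPM in those of the UBD library, ratios of 1.06 and 1.21, and its partner Arnt had ratios of 1.21 and 1.24. Epas1, which encodes HIF-2 alpha, was at 0 UMIs in control hypoxic cells, which allows up to 0.165 CPM, against 0.343 CPM from 31 UMIs in the other control tumour cells. In the UBD library it was at 1 UMI in hypoxic cells and at 14 UMIs in the others. Vhl was 25.8 against 10.5 CPM among control cells and 19.3 against 10.4 CPM among UBD cells. Of the list of subunits and regulators 3 of 9 were higher among control and 4 of 9 among UBD cells, beside 7.86% and 7.84% of all genes.

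Glycolysis was higher at nearly every step. Of 18 genes of the pathway, 4 of which (Hk2, Pgk1, Ldha and Slc16a3) also stand among the HIF targets, 16 were at least 1.5-fold higher among control and 15 among UBD cells, 0 were lower in either, and the median log2 ratios were 1.23 and 1.00. Gapdh was 9136 CPM in hypoxic and 3408 CPM in other control cells, and 5773 and 2853 CPM in those of the UBD library. Pgk1, which makes the first ATP of the pathway, was 2857 against 975 CPM among control cells and 2589 against 1096 CPM among UBD cells. Aldoc had the largest ratios of the list, 5.15 and 3.67, and Ldha, which reduces pyruvate to lactate, had ratios of 2.09 and 1.73. The lactate exporter Slc16a3 had ratios of 2.45 and 2.34, while Slc16a1, the other transporter of the list, had 1.1 and 1.06. Bsg, the chaperone of both transporters, was 1505 CPM in hypoxic and 531 CPM in other control cells, and 1146 and 563 CPM in those of the UBD library. The glucose transporter Slc2a3 was 66.6 against 11.9 CPM among control cells and 86.5 against 17.5 CPM among UBD cells, 5.59-fold (5.14 to 6.07) and 4.95-fold (4.61 to 5.32). Pdk1, which blocks the entry of pyruvate into mitochondria, had ratios of 2.68 and 2.14. Pfkfb3 and Pfkfb4, which make the activator of phosphofructokinase, were at or under the other tumour cells, with ratios of 0.473 and 0.695 and of 0.725 and 0.929.

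Respiratory chain and citric acid cycle genes stayed within 1.5-fold for the most part. Of 39 nuclear genes of oxidative phosphorylation 1, Ndufa4l2, was higher in each library, 6 were lower among control and 1 among UBD cells. The lower shares were under the 20.1% and 17.2% of all genes. The medians of the list were -0.26 and -0.25. These medians lie close to the all-gene medians above, and after centring on them they were -0.10 and -0.11. Cox6c, a subunit of complex IV, was 594 CPM in hypoxic and 778 CPM in other control cells, and 636 and 772 CPM in those of the UBD library. Cox4i1, of the same complex, was 1418 against 1450.4 CPM among control cells and 1434 against 1498 CPM among UBD cells. The 23 genes of the citric acid cycle and pyruvate entry had medians of -0.13 and -0.11.

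**Figure D2:**
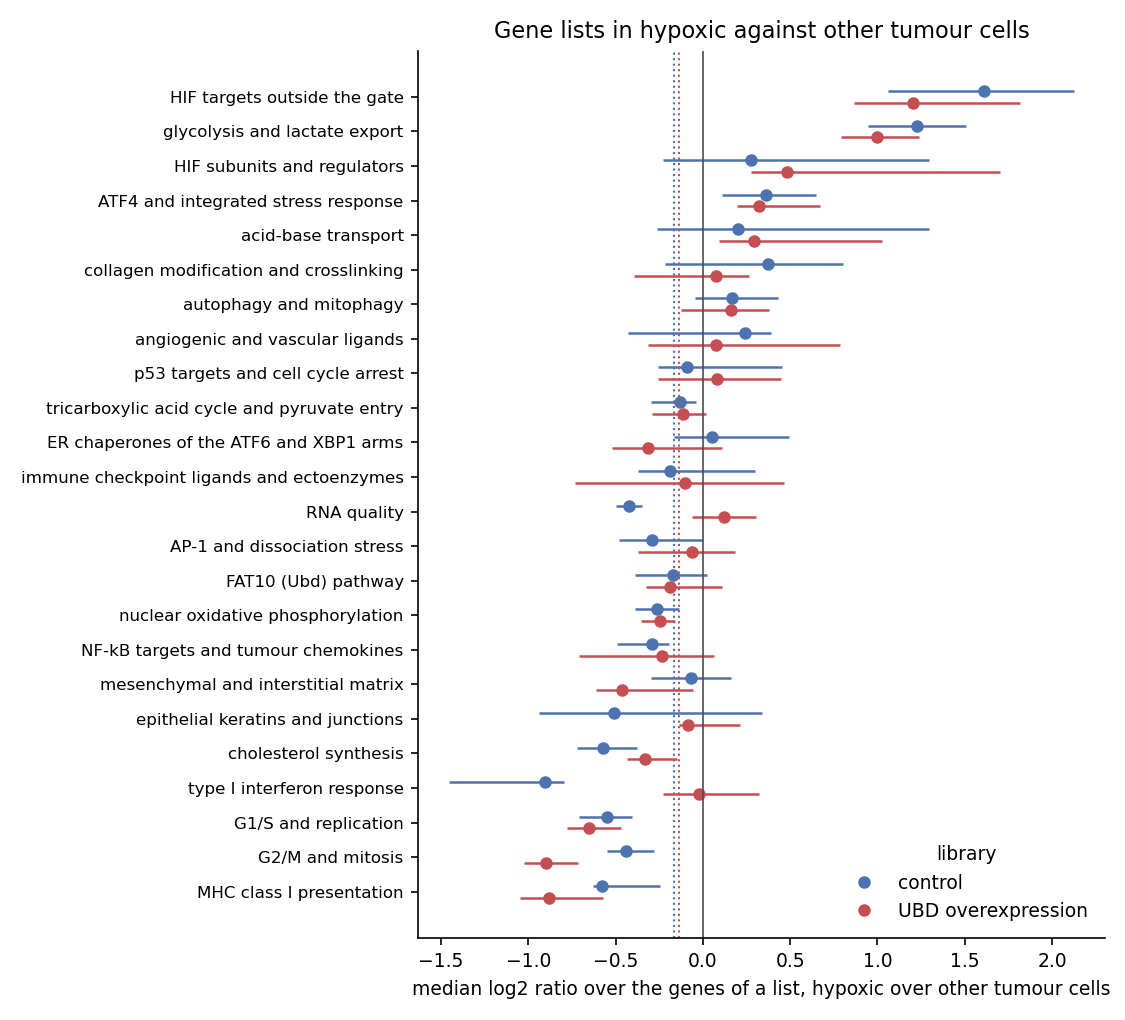
Median log2 ratio of hypoxic over other tumour cells (horizontal axis) for each of 24 gene lists, in the control and UBD overexpression libraries; bars span the lower to the upper quartile of the genes of a list, a spread between genes and not an error, and dotted lines mark the median of all genes in each library. HIF targets (1.61 and 1.2) and glycolysis (1.23 and 1.00) stand farthest right, and the type I interferon list lies at -0.90 among control and -0.02 among UBD cells.

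Among all genes at 50 CPM or more in both libraries, 2568 in all, 105 met the rule for naming a higher gene and 90 for a lower gene. The 15 higher genes with the largest smaller ratio included 9 that belong to the HIF target or glucose uptake genes above or below: Ndufa4l2, Slc2a3, Bnip3, Ankrd37, Mxi1, Egln3, Egln1, Vegfa and P4ha2. Mxi1, a MYC antagonist, was 209.5 CPM in hypoxic and 48.1 CPM in other control cells, and 263 and 68.4 CPM in those of the UBD library. P4ha2, which hydroxylates collagen prolines, was 222 against 53.3 CPM among control cells and 181 against 51.5 CPM among UBD cells. The other 6 were Sprr2k, Ankrd44, Tnfrsf9, Cdkn1a, Il33 and Hmox1. Il33, an alarmin cytokine held in the nucleus, was 774 CPM in hypoxic and 213 CPM in other control cells, and 242 and 49.7 CPM in those of the UBD library, ratios of 3.63-fold (3.55 to 3.71) and 4.87-fold (4.67 to 5.08). Tnfrsf9, the receptor CD137 better known from activated T cells, was 148 against 24.1 CPM among control cells and 93.4 against 21.1 CPM among UBD cells, ratios of 6.16-fold (5.82 to 6.52) and 4.42-fold (4.13 to 4.73), while T and NK cell markers summed to 3.25 and 4.13 CPM in the same cells. Hmox1, which degrades haem, was 432 CPM in hypoxic and 91.2 CPM in other control cells, and 128 and 35.6 CPM in those of the UBD library. Cdkn1a, the cell cycle inhibitor p21, was 350.2 against 74 CPM among control cells and 323 against 87.7 CPM among UBD cells, 4.73-fold (4.57 to 4.9) and 3.68-fold (3.55 to 3.82). Sprr2k, a small proline-rich protein, was 108 CPM in hypoxic and 21.7 CPM in other control cells, and 73.4 and 14.1 CPM in those of the UBD library, and Ankrd44 had ratios of 4.76 and 4.63. The naming rule required these 15 genes to be higher in the hypoxic cells of both libraries. Over the alternative settings, which reuse the same libraries, all 540 values stayed past 1.5-fold.

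**Figure D3:**
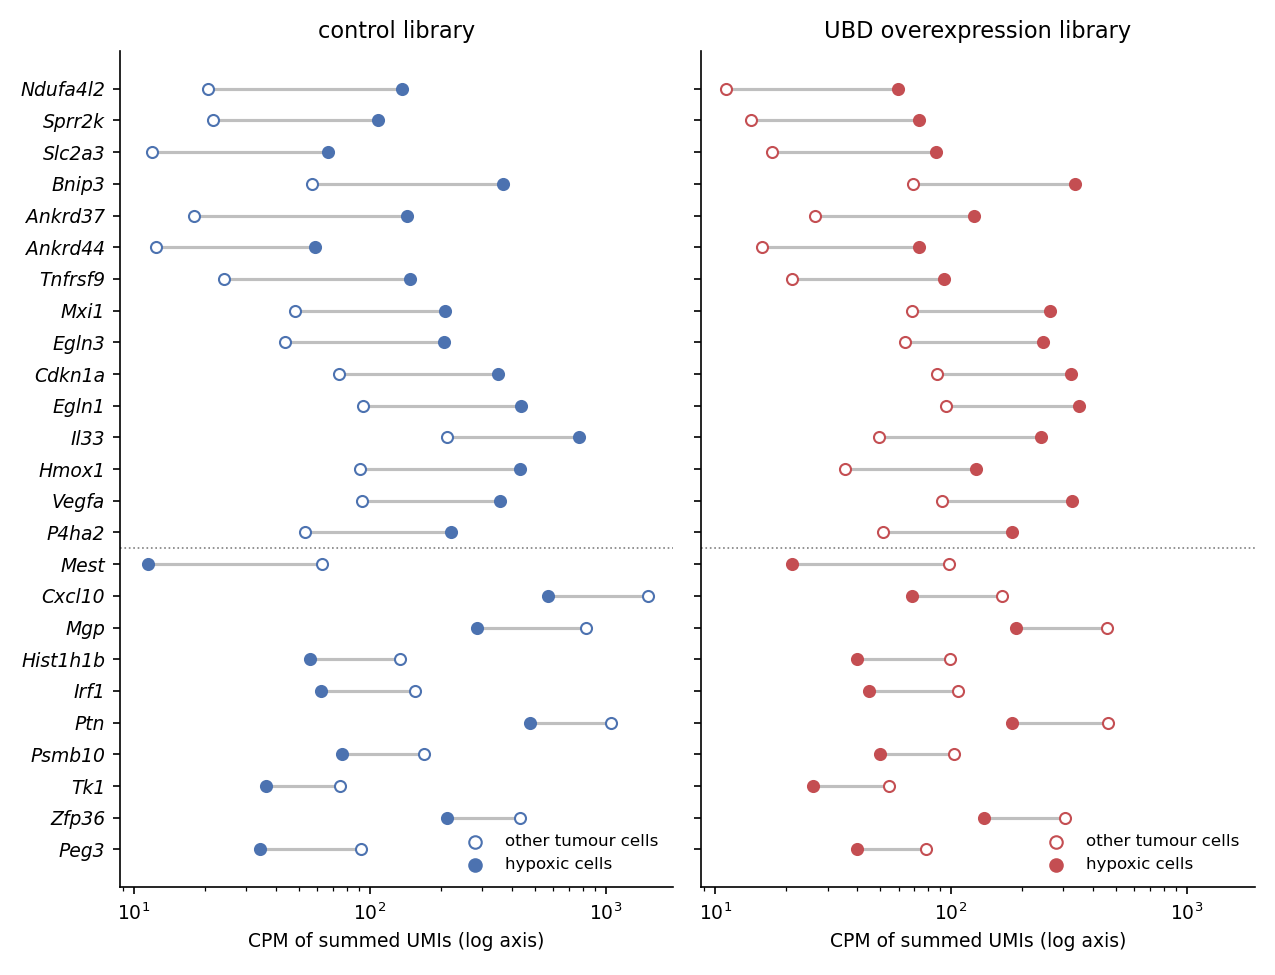
Levels (horizontal axis, CPM of summed UMIs, log scale) of the 15 higher and 10 lower named genes in hypoxic cells (filled points) and in other tumour cells (open points), in the control library (left) and the UBD overexpression library (right). By the naming rule the filled point lies right of the open point in both libraries above the dotted line, from Ndufa4l2 to P4ha2. Below the dotted line, from Mest to Peg3, the filled point lies left of the open point.

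Some lists had 1 or 2 members far from the rest. In the keratin list Krt19 was 60.6 against 5.63 CPM among control cells and 40.2 against 5.0 CPM among UBD cells, ratios of 10.8-fold (9.69 to 12) and 8.03-fold (7.15 to 9.02). Krt18 was 4.52 CPM in hypoxic and 14 CPM in other control cells, and 49.2 and 81.7 CPM in those of the UBD library, and Krt8 had ratios of 0.563 and 0.908. The Krt19 UMIs came from 228 of 539 control and 127 of 589 UBD hypoxic cells. Among checkpoint ligands and ectoenzymes Lgals3, a galectin, was 1115 against 381 CPM among control cells and 757 against 222 CPM among UBD cells, and Cd47, the signal against phagocytosis, had ratios of 1.65 and 1.45. Cd274, which encodes PD-L1, was 2.92 CPM in hypoxic and 7.77 CPM in other control cells, and 1.03 and 3.35 CPM in those of the UBD library, resting on 53 and 13 UMIs in hypoxic cells. In the p53 and arrest list Cdkn1a and Ccng2 (ratios of 3.78 and 2.7) were higher, Btg2 was lower in the control library (0.504 and 0.678), and the medians were -0.09 and 0.08. In the autophagy list Bnip3 and Bnip3l were the 2 higher genes of 16 in each library, beside 7.86% and 7.84% of all genes. Metallothioneins marked many of the same cells: 58.8% of control and 20.4% of UBD hypoxic cells were in the top 10% of tumour cells by Mt1 and Mt2, against 17.8% and 1.62% of the other tumour cells.

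Stress lists gave mixed values. Of the ATF4 and integrated stress response list 6 of 20 genes were higher among control and 6 of 21 among UBD cells, with medians of 0.36 and 0.32. Ddit3, the stress factor CHOP, was 252 against 105 CPM among control cells and 228 against 99.8 CPM among UBD cells, and Trib3 had ratios of 2.53 and 1.8, whereas Atf4 had 1.2 and 1.37 and Atf3 0.595 and 0.977. For the endoplasmic reticulum chaperones the medians were 0.05 and -0.32, with P4hb (1.74 and 1.2) and Hspa5, which encodes BiP (1.45 and 1.06), on the higher side and Calr (0.891 and 0.697) on the lower. In the collagen modification list 5 of 15 genes were higher and 2 lower among control cells, with a median of 0.37. Among UBD cells 4 of 15 were higher and 3 lower, with a median of 0.08. Of all genes, 7.86% and 7.84% were higher and 20.1% and 17.2% lower. The higher genes included P4ha1 (2.52 and 2.01), Plod2 (3.06 and 2.13) and Lox (5.6 and 2.97), which crosslinks collagen. All of these named genes also stand in the HIF target list. In the interstitial matrix list 2 of 20 were higher and 1 lower in the control library, 0 higher and 7 lower in the UBD library, with medians of -0.07 and -0.46. The immediate early and dissociation stress list, a sign of handling, had medians of -0.29 and -0.06. Lars2 and Gm42418, read here as signs of RNA quality, had ratios of 0.508 and 0.835 and of 0.708 and 0.957. The other 2 genes read this way, Malat1 and Neat1, had ratios of 1.1 and 1.24 and of 0.787 and 1.34, and the 4 had medians of -0.42 and 0.12.

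The 10 lower genes with the ratios farthest from 1 by the same ranking began with Mest. Mest, an imprinted gene, was 11.5 CPM in hypoxic and 63 CPM in other control cells, and 21.3 and 98.5 CPM in those of the UBD library, 5.47-fold (4.76 to 6.31) and 4.63-fold (4.1 to 5.25) lower. Peg3, also imprinted, was 2.69-fold and 1.95-fold lower. Mgp, the inhibitor of matrix calcification, was 284 against 827 CPM among control cells and 189 against 457 CPM among UBD cells, and the growth factor Ptn was 2.2-fold and 2.56-fold lower. The linker histone gene Hist1h1b and the thymidine kinase gene Tk1, both tied to DNA replication, were 2.41-fold and 2.47-fold and 2.06-fold and 2.1-fold lower. Zfp36, which destabilises inflammatory mRNAs, was 2.04-fold and 2.21-fold lower. The chemokine gene Cxcl10, the transcription factor gene Irf1 and the immunoproteasome gene Psmb10 completed the 10. The naming rule required these 10 genes to be lower in both libraries. Over the alternative settings, which reuse the same libraries, 356 of 360 values stayed at least 1.5-fold lower.

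Replication genes were lower in both libraries and mitotic genes in the UBD library. Of 20 genes of DNA replication 9 were lower among control and 12 among UBD cells, 0 higher in either, with medians of -0.55 and -0.65. Tyms was 69.7 CPM in hypoxic and 131 CPM in other control cells, and 54.5 and 106 CPM in those of the UBD library. Of 18 mitotic genes 3 were lower among control cells, a share under the 20.1% of all genes there, and 15 among UBD cells, where 17.2% of all genes were lower, with medians of -0.44 and -0.90, and after centring on the median gene the control value was -0.27. Top2a was 165 against 203 CPM among control cells and 136 against 226 CPM among UBD cells, and Birc5, which encodes survivin of the mitotic machinery, was 108 CPM in hypoxic and 181 CPM in other control cells, and 70.5 and 144 CPM in those of the UBD library. Thinned to 5000 UMIs, at least 3 UMIs of the mitotic list were seen in 38.4% (34.3 to 42.7) of control and 30.4% (26.7 to 34.3) of UBD hypoxic cells. The other tumour cells had 55.7% (54.0 to 57.4) and 44.9% (43.8 to 46.1).

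Of the 24 lists, the type I interferon response had the medians farthest apart between the libraries. In the control library 17 of 18 genes were at least 1.5-fold lower in hypoxic cells and 0 higher, with a median log2 ratio of -0.90. In the UBD library 3 were lower and 2 higher, with a median of -0.02. Ifit1, which binds viral RNA, was 107 against 220.1 CPM among control cells and 12.5 against 21.4 CPM among UBD cells. Isg15, a ubiquitin-like modifier, was 139 CPM in hypoxic and 243 CPM in other control cells, and 29 and 27.5 CPM in those of the UBD library. Cxcl10, which attracts T cells, was lower in both libraries, 572 against 1519 CPM among control cells and 68.2 against 165 CPM among UBD cells. The same held for Irf1, 62.2 CPM in hypoxic and 156 CPM in other control cells, and 45.1 and 107 CPM in those of the UBD library. Levels in the UBD library were low in both kinds of cell, and 28.5% of control tumour cells but 0.254% of UBD tumour cells fell in a cluster led by Apod, Stat2, Mx1 and Cxcl10 in which 1.11% of control cells were hypoxic. With the other tumour cells weighted to the clusters of the hypoxic cells, the interferon medians were -0.80 and -0.53.

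Genes of antigen presentation on MHC class I had negative medians in both libraries. In the control library 8 of 16 were lower and 0 higher, with a median of -0.58, and in the UBD library 11 of 16 were lower and 0 higher, with a median of -0.88. The control median was -0.29 with the other tumour cells weighted to the clusters of the hypoxic cells. Within control cluster 0 it was -0.28, with 3 of 16 genes lower, beside 2015 of 13104 of all genes. Within UBD clusters 0, 1 and 3 the medians were -1.18, -0.76 and -0.90, with 10 of 13, 11 of 16 and 10 of 16 genes lower. Of all genes there 2066 of 9562, 2420 of 12622 and 1688 of 12846 were lower. In cluster 4 the medians were -0.33 over 8 control genes and 0.04 over 5 UBD genes. Psmb8, of the immunoproteasome, was 57.1 against 109 CPM among control cells and 16.7 against 53.3 CPM among UBD cells. Psmb10, of the same particle, was 76.1 CPM in hypoxic and 169 CPM in other control cells, and 50.02 and 103 CPM in those of the UBD library. Tap1, of the peptide transporter, had ratios of 0.625 and 0.471. The heavy chain gene H2-D1 was 698 against 714 CPM among control cells and 163 against 324 CPM among UBD cells, and H2-K1 had ratios of 0.848 and 0.534. B2m, the shared light chain, was 1975 CPM in hypoxic and 1833 CPM in other control cells, and 705 and 997 CPM in those of the UBD library. In the control library H2-D1, H2-K1 and B2m were thus within 1.5-fold while Psmb8 and Psmb10 were not. Of 18 cholesterol synthesis genes 9 were lower among control cells, where 20.1% of all genes were lower. Among UBD cells 2 of 18 were lower, a share under the 17.2% of all genes there. The medians were -0.57 and -0.33, and Fdps was 65.2 against 118 CPM among control cells and 136 against 179 CPM among UBD cells.

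The response was graded along the score. In 7 bins of all tumour cells, the summed CPM of the HIF targets outside the score went from 4069 in the lowest 50% to 9445 just below the hypoxic cells and 17534 in the top 1% of the control library. In the UBD library it went from 4398 through 8931 to 16274. Glycolysis went from 7537 to 25909 and from 7325 to 22578 CPM, and Bnip3 alone from 24.1 to 534 and from 34.8 to 613 CPM. Oxidative phosphorylation went down from 13897 to 9711 and from 14541 to 10195 CPM. Mitotic genes were at 1808 CPM in the lowest bin and 618 CPM in the top 1% of the control library, but at 1350.4 CPM in the middle bin of its hypoxic cells. In the UBD library they went from 1536 to 574 CPM in that middle bin and 273 CPM in the top 1%. In the same middle bin, at like scores, the HIF target sum was 14195 CPM in 240 control cells and 12977 CPM in 211 UBD cells. By the HIF targets alone, 76.4% of control and 54.5% of UBD hypoxic cells were in the top 10% of tumour cells, against 4.24% and 3.72% of the other tumour cells.

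**Figure D4:**
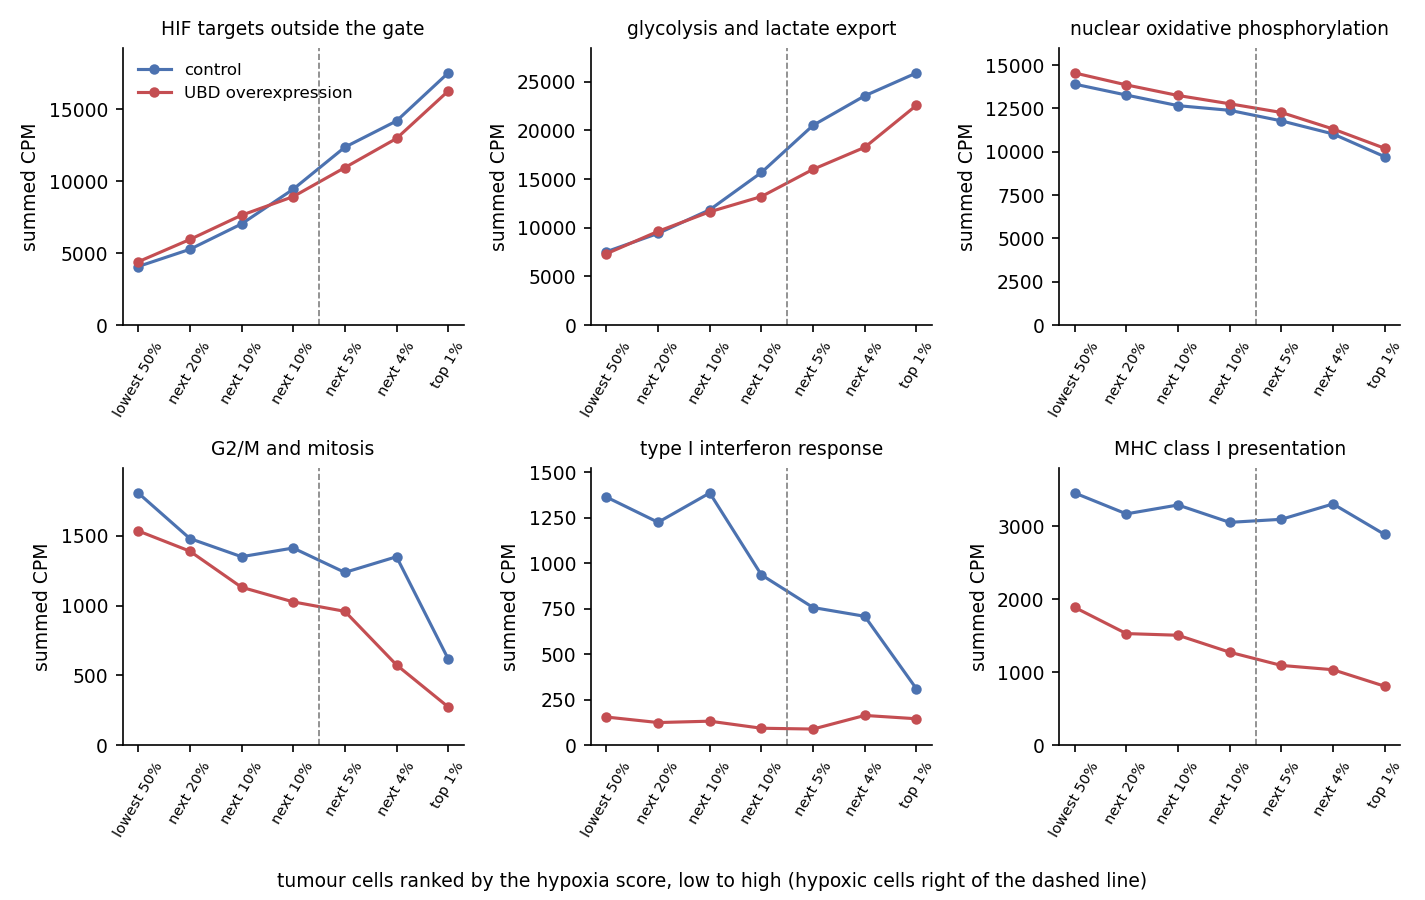
Summed CPM (vertical axes) of 6 gene lists over tumour cells binned by the hypoxia score from low to high (horizontal axes), in the control and UBD overexpression libraries; bins right of the dashed line are the hypoxic cells. HIF targets go from 4069 to 17534 CPM in the control library and from 4398 to 16274 CPM in the UBD library, and oxidative phosphorylation goes down in both.

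Hypoxic cells were found in most transcriptional states of the tumour cells, unevenly. Clustering all tumour cells without the score genes gave 8 clusters, which are called by number and leading genes. Cluster 4, led by Wdfy1, Sprr2e and Cryab, had the highest share of hypoxic cells, 56.2% (44.1 to 67.8) of 73 control cells and 54.0% (44.9 to 62.9) of 126 UBD cells, and its leading genes included Bnip3, Pgf, Ddit4 and Mt1. In cluster 0, led by Lcn2, Il11 and Tslp, 21.0% (19.2 to 22.8) of control and 29.2% (23.8 to 35.1) of UBD cells were hypoxic. That cluster held 78.8% of control but 13.1% of UBD hypoxic cells. Most UBD hypoxic cells lay elsewhere, 49.2% of them in cluster 3, led by Krt8 and Krt18, where they made up 8.44% of cells, and 18.2% in cluster 1, led by Cygb and Igfbp5, where they made up 3.33%. Clusters 1 and 3 held 21 and 44 control cells, so for these 2 clusters library and state cannot be told apart. Few were hypoxic in cluster 2 (1.11% in the control library) and cluster 7 (0.513%).

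**Figure D5:**
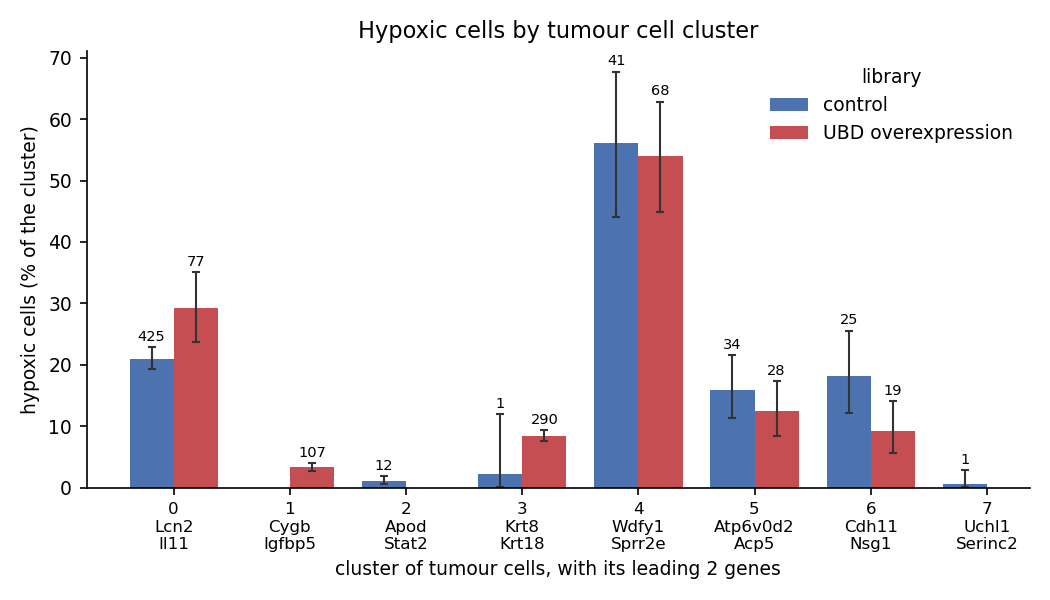
Hypoxic cells as a percent of each tumour cell cluster (vertical axis) in the control and UBD overexpression libraries, for clusters with at least 40 cells of the library; bars start at 0, error lines are exact 95% intervals and the number over each bar counts its hypoxic cells. Cluster 4 reaches 56.2% and 54.0%, cluster 0 21.0% and 29.2%, and cluster 2 1.11%.

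Cluster 5 stood apart from the other clusters. It was led by Atp6v0d2, Acp5, Arg1, Tyrobp and C1qc, genes of osteoclasts and macrophages, its Y-linked genes summed to 14.6 and 16.7 CPM, and it held 34 control and 28 UBD hypoxic cells. Left without cluster 5, the HIF target medians were 1.60 and 1.21, 513 genes were higher and 1194 lower in both libraries, and the log2 ratio of the shares was -0.86.

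The HIF target medians were above those of all genes inside each cluster that could be measured. Within cluster 0 the HIF target medians were 1.56 in the control library (25 of 29 genes higher) and 0.99 in the UBD library (22 of 29). In UBD cells they were 1.29 within cluster 1 and 1.08 within cluster 3. Within cluster 4, where 41 control and 68 UBD hypoxic cells stood beside 32 and 58 others, they were 1.33 and 1.53, while the medians of all genes were 0.60 and 0.22. Glycolysis medians were 1.11 and 0.78 within cluster 0, 1.07 within UBD cluster 1 and 0.87 within UBD cluster 3. Within cluster 4 they were 0.56 among control cells, under the median of all genes, with 8 of 16 genes higher, and 0.79 among UBD cells. Of all genes measured in the control cells of cluster 4, 2921 of 5789 were higher. In that cluster the hypoxic cells of the control library had a median of 26164 UMIs and the others 10036. Mitotic medians were -0.53 and -1.57 within cluster 0, -2.02 within UBD cluster 1 and -0.84 within UBD cluster 3. Within cluster 4 they were 1.02 among control cells and -0.18 among UBD cells. In its control cells 10 of 14 mitotic genes were higher, beside 2921 of 5789 of all genes. The interferon list was at -0.79 in control cluster 0, and at -0.28, -0.41 and -1.21 in UBD clusters 0, 1 and 3. In cluster 4 it was at -0.39 over 8 control genes and 0.03 over 2 UBD genes. The 4 RNA quality genes had medians of 0.09 in control cluster 0 and of 0.22, 0.10 and 0.33 in UBD clusters 0, 1 and 3. In cluster 4 their medians were 0.85 among control cells, with 2 genes higher and 2 lower, and -0.20 among UBD cells.

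Hypoxic cells of the UBD library were set against those of the control library, and the same was done for the other tumour cells. UBD over control, 1062 of 11949 genes (8.89%) were at least 1.5-fold higher and 1725 (14.4%) lower in hypoxic cells, against 9.76% and 18.9% of 14901 genes in the other tumour cells. Cluster 0 held most control hypoxic cells and cluster 3 the largest group of UBD hypoxic cells, so the values of the 2 libraries come from different clusters. All 18 interferon genes measured were lower in UBD hypoxic cells, with a median log2 ratio of -2.82, and the same median was -3.91 in the other tumour cells. Of 16 class I presentation genes 15 were lower and 1 higher, with a median of -1.63, against -1.02 in the other tumour cells. Of the 18 cholesterol synthesis genes 11 were higher and 0 lower, with a median of 0.68 against 0.50. HIF targets had a median of -0.28, with 8 of 29 lower and 0 higher, against -0.04 in the other tumour cells. Bnip3 and Vegfa in hypoxic cells were 0.914 and 0.906 times the control level, Hmox1 0.295 and Il33 0.313. The imprinted transcript H19 was 12.3 CPM in hypoxic and 22.6 CPM in other control cells, and 107 and 163 CPM in those of the UBD library, 8.69-fold higher in UBD hypoxic cells and 7.19-fold in the other UBD tumour cells.

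Ubd itself was barely detected in hypoxic cells. It was at 0 UMIs in the 539 control hypoxic cells, which allows up to 0.165 CPM, and at 4 UMIs in 3 of 589 UBD hypoxic cells, 0.318 CPM. In the other tumour cells it was 0.376 CPM among control and 1.22 CPM among UBD cells, from 34 and 170 UMIs. These UMIs are too few to check the label of the UBD library within hypoxic cells, and whether the transcript of the construct reaches the counted 3' end is not stated in the labels.

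Few genes had a ratio of hypoxic to other tumour cells that differed between the libraries by 1 or more on the log2 scale at 50 CPM or above: 0 in the direction of a larger UBD ratio and 3 of a smaller one. Pgf, a vessel growth factor related to Vegfa, was 91.3 against 10.1 CPM among control cells and 70.6 against 25 CPM among UBD cells, 9.08-fold (8.37 to 9.86) and 2.82-fold (2.62 to 3.04). Its level in hypoxic cells differed less than its level in the other tumour cells, where the UBD library was 2.49-fold higher. Ankrd1, a muscle ankyrin repeat protein also induced by YAP, was 253 CPM in hypoxic and 165 CPM in other control cells, and 36.8 and 60.7 CPM in those of the UBD library, with ratios of 1.53 and 0.605. Col1a2, a chain of type I collagen, was 43.2 against 53.1 CPM among control cells and 14.1 against 74.4 CPM among UBD cells, with ratios of 0.813 and 0.19. Col1a2 UMIs were concentrated: 10 cells held 81.4% of them in control and 54.5% in UBD hypoxic cells, and without those cells the levels were 8.05 and 6.43 CPM. The other tumour cells without their own 10 were at 32.5 and 64.9 CPM. In the control library 84 of 539 hypoxic and 613 of 3251 other cells had Col1a2 UMIs. Leaving out 10 cells thus takes a larger part of the hypoxic cells, and these levels are not a like comparison. The ratio was 1.00 (0.924 to 1.09) within control cluster 0 and 1.12 (0.332 to 4.83) within control cluster 4. In UBD cells it was 0.0483, 0.313 and 0.628 within clusters 0, 1 and 3. For Col1a2 in the UBD library the log2 ratio was -2.40, and 0.22 where the cells were ranked without Ero1l.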

How the data were processed

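Droplet single-cell RNA sequencing covered 1 control and 1 UBD overexpression library from subcutaneous MC38 tumours, prepared with a 3' v3 kit per the labels' protocols. The authors deposited UMI counts of 31053 genes as 1 sparse matrix per library, and these counts were used as deposited. The submitters' processing notes name Cell Ranger, STAR and mm10, and the software version is 3.1.0 per the file headers. The annotation and the calling of cells are not stated in the labels or headers. Positions come from GENCODE vM21 (GRCm38, also named mm10), which holds 30934 of the IDs. The libraries held 14890 and 14158 barcodes with 173973178 and 204267192 UMIs.

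Of the control barcodes 6652 had 5000 UMIs, 6566 of these at most 20% mitochondrial UMIs, 4416 of these enough Cdkn2a and 3790 of these 0 Ptprc UMIs. The UBD numbers were 10791, 10762, 7982 and 7493. UMIs were summed over hypoxic and other tumour cells within each library, leaving out the score and gating genes. Poisson and Clopper-Pearson intervals are exact, ratios have exact conditional binomial intervals, and a count of 0 is given the limit of 3 counts. Genes needed 20 summed UMIs in a library. The ratio intervals were tested on Poisson counts drawn from the summed UMIs. These counts follow the model that the intervals assume, and UMIs concentrated in few cells were not simulated. The members and the 24 gene lists were chosen with earlier results of these data known. Named genes are the 15 largest and 10 smallest ratios by the ratio nearer 1, with at least 50 CPM and 50 UMIs in both libraries and 1.5-fold the same way. Genes whose ratio differed by 1 or more on the log2 scale (at most 6 each way), up to 4 list examples by UMIs and a fixed set of always named genes were added. Apln, Psmb8 and the other list genes outside that rule were named after their values were seen. Scrublet in scanpy, at an expected rate of 0.1 on barcodes with 500 UMIs and 200 genes, marked 3.69% and 4.13% of barcodes. Doublets were kept, and removed in an alternative. Tumour cells were clustered with Leiden at resolution 0.5 on 2000 variable genes, 30 components and 15 neighbours, without batch correction. Versions were Python 3.11.15, scanpy 1.11.5, scipy 1.17.1, numpy 2.4.6, scikit-learn 1.9.0, leidenalg 0.10.2 and matplotlib 3.10.9.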

Additional observations from a re-analysis of the deposited data

Results flagged for a closer look

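In 2 of the named genes the hypoxic cells were at least 1.5-fold higher than the other tumour cells in one library and at least 1.5-fold lower in the other, and neither difference was tested, as there is 1 library per group. The log2 ratio of Rsad2, an antiviral interferon-induced enzyme, was 2.32 higher in the UBD library (91.3 against 158 CPM in the control library, 11.3 against 3.92 CPM in the UBD library). The UBD level rested on 142 UMIs in 19 hypoxic cells, and 10 of these cells held 93.7% of them. Without those 10 it was 0.715 CPM, against 2.34 CPM in the other UBD tumour cells without their own 10. Among the other UBD tumour cells 143 had Rsad2 UMIs, so leaving out 10 takes a larger part of the hypoxic cells. The 2 trimmed levels are thus not a like comparison. For Ankrd1 the difference of the log2 ratios was -1.34. Its ratio was 1.57 within control cluster 0 and 1.58 within control cluster 4. In UBD cells it was 0.726 (0.597 to 0.878) within cluster 0 and 0.98 (0.782 to 1.21) within cluster 1. Within UBD clusters 3 and 4 it was 0.362 (0.309 to 0.422) and 0.558 (0.304 to 1.02). Its UMIs came from 326 control and 140 UBD hypoxic cells. Without the 10 cells with the most UMIs in each set the levels were 176 against 148 CPM and 21.0 against 56.2 CPM. Here too the 10 cells are a larger part of the hypoxic cells than of the others.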

How the results depend on the processing

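Over 21 settings, 1634 of 4245 single gene values moved beyond their counting interval. By sign, 0 of 960 list values and 4 of the single gene values reversed. A change of sign was counted only where the reported value was at least 1.5-fold from 1. The medians of most lists were within 1.5-fold, so these lists could not reverse by this rule. The cause was not tested in any case. The 4 were Ifit1 in the UBD library at the top 5% (log2 ratio 0.31), Col1a2 in the UBD library without Ero1l in the score (0.22), Krt8 in the control library with other cells matched for cluster (0.46) and H19 in the UBD library with the same matching (0.022). The UBD interferon median, reported at -0.02 and so not counted, changed sign between settings and ranged from -0.53 to 0.38. Control MHC class I medians ranged from -0.74 to -0.29, the latter with matching for cluster, and were -0.31 without Ero1l. HIF target medians ranged from 1.51 to 1.78 and from 1.11 to 1.34, and glycolysis medians from 1.08 to 1.45 and from 0.84 to 1.13. At the top 5%, the log2 share ratio was -1.47 and the UBD medians of oxidative phosphorylation and mitosis were -0.36 and -1.46, with MHC class I at -0.70 in the control library. At the top 20%, the share ratio was -0.41, 606 genes were lower in both libraries, and the UBD medians of oxidative phosphorylation, replication, mitosis and interferon were -0.17, -0.45, -0.71 and -0.33. Without Ero1l the UBD interferon median was 0.38. With cells weighted equally it was -0.24, and the control MHC class I median was -0.74. The control interferon median was -0.76 at a Cdkn2a minimum of 10 and -0.79 with other cells matched for UMI count. Matching for cluster gave mitotic medians of -0.55 and -1.04 and a UBD interferon median of -0.53. Centring on the median gene gave 789 higher and 760 lower genes, oxidative phosphorylation at -0.10 and -0.11, and control replication, mitosis and interferon at -0.38, -0.27 and -0.73. At a fold of 2, 212 genes were higher and 363 lower. Leaving out cluster 5 was chosen after seeing the data. No paired analysis was possible because there is 1 library per group, and for the same reason no replicate could be left out. Depth limits genes under 20 UMIs in hypoxic cells, Ubd and Epas1 among them.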

Other observations

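Il33 marked hypoxic cells in both libraries against different backgrounds. Thinned to 5000 UMIs, it was seen in 81.3% (77.7 to 84.5) of control and 37.9% (33.9 to 41.9) of UBD hypoxic cells, and in 37.4% and 12.8% of the other tumour cells (92.4%, 50.1%, 59.1% and 22.7% unthinned). Its ratio was 3.16 in control and 2.41 in UBD cells of cluster 0, where its levels in hypoxic cells were 820 and 657 CPM. In UBD cells of clusters 1 and 3 the ratio was 4.02 and 5.8, and in cluster 4 it was 1.52 among control and 3.24 among UBD cells. Cluster 0 held 78.8% of control and 13.1% of UBD hypoxic cells. Krt19 had ratios of 10.1 and 8.29 within that cluster and 12.8 and 4.86 in UBD cells of clusters 1 and 3. In cluster 4 the Krt19 ratio was 1.51 (0.803 to 3.03) among control cells, and among UBD cells 23.3 (3.94 to 947).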
